A study of Danio rerio with 8 samples.

Results

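The genes described here are 10 transcription factor genes that commit neural progenitors to a neuronal fate or act soon afterwards: neurog1, ascl1a, ascl1b, neurod4, atoh1a, atoh7 and ptf1a, which encode basic helix-loop-helix (bHLH) proteins, the zinc finger genes insm1a and insm1b, and ebf2. They were chosen by name from the 32433 genes of the authors' deposited table. Of the 10, 9 were found under these symbols, and ebf2 was found by its gene identifier under its older name coe2. RNA came from cells sorted by fluorescence from heads of zebrafish embryos at 24 to 26 hours post-fertilization. All embryos carried Tg(flhBAC:kaede)vu376, a transgene that uses a bacterial artificial chromosome of flh (floating head), a homeobox gene active early in the pineal primordium, to express the fluorescent protein Kaede. Wild-type embryos were not injected (4 libraries), and tbx2b knockdown embryos received 5 ng (2 libraries) or 6 ng (2 libraries) of a morpholino that targets tbx2b splicing. By the labels the libraries pair up as technical replicates, so each group rests on 2 RNA samples. How the authors' test treated these pairs is not stated. If it took the 4 libraries of a group as independent, its p and q values may be too small. The table holds 1 value per gene and group, so the value in each library, its spread and the depth cannot be given.

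Proneural bHLH factors bind DNA as dimers with widely expressed E proteins. They switch on Delta ligands, which signal through Notch in the neighbouring cells. There, repressors of the Hes, Her and Hey families keep proneural genes low, and Id proteins block the factors by binding E proteins. In the zebrafish pineal organ, Ascl1a and Neurog1 are known to drive neurogenesis downstream of Flh. Insm1 proteins promote exit from the cell cycle and differentiation, and Ebf factors act in newly born neurons.

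None of the 10 genes was called different between wild-type and knockdown cells, and 8 of them were tested. In these embryos 7 of the genes stood between 12.6 and 55.3 FPKM in both groups (fragments scaled by transcript length and library size). Atoh7 stood at 1.48 FPKM or less, and atoh1a and ptf1a were below 0.2 FPKM. Over all genes the authors called 83 of 18954 tested genes (0.438%), 20 higher (0.106%) and 63 lower (0.332%) in the knockdown, so a count of 0 of 8 lies at the background. At an unadjusted deposited p under 0.05, 1 of the 8 members (ascl1a, lower) passed, beside 5.53% of all tested genes and 3.76% that passed in this direction. In the other direction 1.77% of all tested genes passed. These shares are also the background of the list counts below. The median log2 fold change (knockdown over wild-type) of the 8 was -0.11, with 5 below and 3 above 0, beside -0.03 over the 18800 tested genes above 0 FPKM in both groups. Rescaling both groups to the same total adds 0.106 to every gene, which puts the members' median at 0.00059 with 4 below 0. Relative to all genes nothing moves. Of the 18800 genes, 10179 lay below and 8621 above 0 as deposited, and 7557 lay below after rescaling. FPKM is printed below as the authors' value for each group, the wild-type one before the knockdown one.

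**Figure D1:**
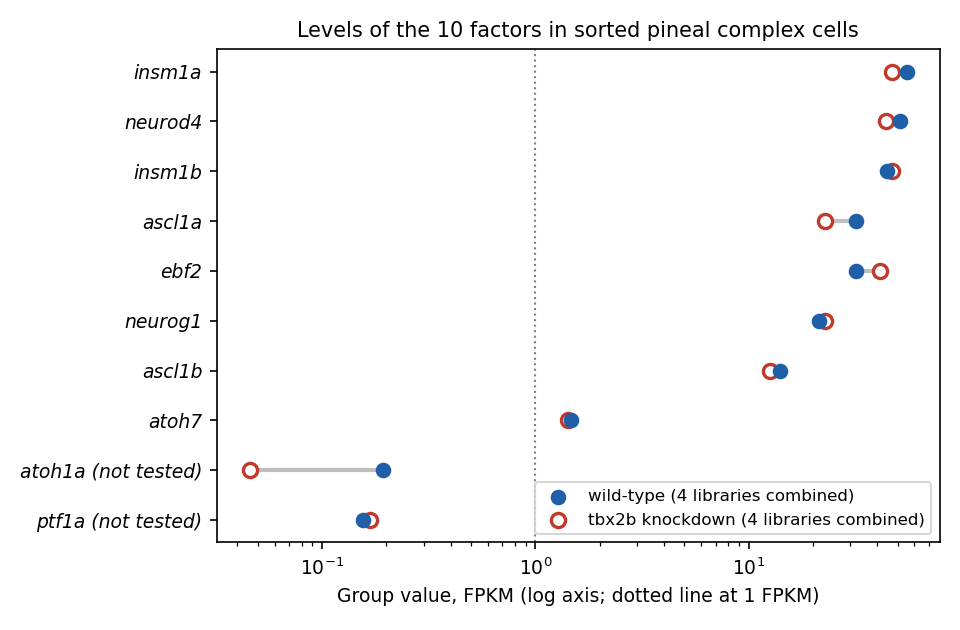
Group values of the 10 factors in FPKM on a log axis, with filled points for wild-type and open points for knockdown; each point is the authors' single value for 4 libraries, so there are no error bars. The order runs from insm1a (55.3 FPKM in wild-type) to ptf1a (0.155 FPKM), and the widest gaps on this axis among tested genes are those of ascl1a and ebf2.

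Neurog1, the neurogenin of cranial sensory ganglia and early neurons, was at 21.4 and 22.8 FPKM. The log2 fold change was 0.10 (q = 0.999., authors' deposited table) Its locus is chromosome 14, 27712428 to 27713928 on the Zv9 build, which applies to every position given here. In wild-type cells 79.2% of tested genes lay below it. The gene was thus well above the median of tested genes, and its group values were close.

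The achaete-scute genes came next. Ascl1a (chromosome 4, 16485294 to 16487377), a proneural factor of forebrain, retina and pineal organ, was at 31.9 and 22.8 FPKM. Its log2 fold change of -0.48 was the lowest among the 8 tested members. The authors' deposited table gives it a p of 0.0469 and a q of 0.884, so it was not called. Its paralog ascl1b (chromosome 7, 51153041 to 51174183) was at 14.0 and 12.6 FPKM, a log2 fold change of -0.16 (q = 0.999., authors' deposited table) The level of ascl1a was 2.27 times that of ascl1b in wild-type and 1.81 times in the knockdown. Summed over both paralogs the level was 45.9 and 35.4 FPKM, a log2 difference of -0.37 that was not tested. The locus of ascl1b is shared with a predicted gene, BX088691.1, at 0.0555 and 0.0640 FPKM.

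Neurod4 (chromosome 23, 28586879 to 28589931), a bHLH factor that follows the proneural genes in differentiating neurons and retina, was at 51.1 and 43.9 FPKM. It was the most abundant of the bHLH members in both groups. The log2 fold change was -0.22 (q = 0.999., authors' deposited table) It made up 20.3% of the summed FPKM of the 10 genes in wild-type and 18.3% in the knockdown.

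The atonal-related members were low. Atoh7 (chromosome 13, 25673570 to 25674614), required in zebrafish for retinal ganglion cells, was at 1.48 and 1.42 FPKM. Its log2 fold change was -0.05 (q = 0.999, authors' deposited table), and it turned to 0.054 after rescaling to the same total. Only 23.4% of tested genes lay below it in wild-type. Atoh1a (chromosome 8, 30442027 to 30443657), which specifies hair cells and rhombic lip neurons, was at 0.193 and 0.0457 FPKM and was not tested by the authors. Ptf1a (chromosome 2, 29425688 to 29426593), which specifies inhibitory neurons of hindbrain and retina as well as exocrine pancreas, was at 0.155 and 0.168 FPKM and was not tested either. At such levels, and with depth unknown, no error can be given for the ratio between the groups, and it is not read as a difference. The relatives atoh1b (0.316 and 0.248 FPKM) and atoh1c (0.0977 and 0.198 FPKM) were not tested either. A further relative, atoh8, was higher, at 5.85 and 5.59 FPKM, and was tested without a call.

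Taken over the 7 bHLH members, 5 were tested, 4 of these lay below 0 (3 after rescaling) and 1 above, with a median log2 fold change of -0.16. Their summed level was 120 FPKM in wild-type and 104 FPKM in the knockdown. The 3 non-bHLH members together were at 132 and 136 FPKM. Neither sum was tested.

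Both Insm1 genes were among the highest members. Insm1a (chromosome 20, 48786611 to 48789136) was at 55.3 and 46.9 FPKM, a log2 fold change of -0.24 (q = 0.999., authors' deposited table) Insm1b (chromosome 17, 41579657 to 41581853) was at 44.6 and 47.3 FPKM, a log2 fold change of 0.09 (q = 0.999., authors' deposited table) The paralogs differed in sign. The ratio of insm1a to insm1b was 1.24 in wild-type and 0.991 in the knockdown. Insm1b was ranked 3 in wild-type, below insm1a and neurod4, and 1 in the knockdown, above both. The summed level of insm1a and insm1b was 99.9 and 94.2 FPKM. Because no spread is available, the order of insm1a, neurod4 and insm1b within a group cannot be set against an error.

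Ebf2 (coe2, chromosome 5, 70387131 to 70436318) was at 31.8 and 41.4 FPKM. Its log2 fold change of 0.38 was the highest among the tested members. The authors' deposited table lists a p of 0.0920 and a q of 0.999, and it was not called. In wild-type it lay level with ascl1a, whereas in the knockdown it stood above it, at rank 4 against rank 6. No spread is available for this order, and in the knockdown neurog1 and ascl1a were nearly level, at 22.85 and 22.82 FPKM. Among its relatives, ebf3 was at 61.0 and 52.5 FPKM, ebf1a at 13.6 and 11.7 FPKM, ebf1b at 1.67 and 1.77 FPKM, and ebf3b at 3.68 and 4.35 FPKM. None of these 4 relatives was called; by value 2 lay above and 2 below 0.

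The size of fold change that the authors' test called gives a scale for these values. Of 5945 tested genes with a mean of both groups between 10 and 100 FPKM, which covers 7 of the members, 34 were called (0.572%). The smallest called fold change in that range was 1.88-fold (0.91 on the log2 scale). The median of those 5945 genes was 0.012, against -0.03 over tested genes of all levels. Their quartiles were -0.14 and 0.16, and their percentiles 5 and 95 were -0.47 and 0.43. Ascl1a, at -0.48, lay just beyond the lower percentile, and ebf2, at 0.38, lay within the upper one. Insm1a, neurod4 and ascl1b lay below the lower quartile and inside the percentiles. Differences smaller than about the smallest called fold may exist in these genes without having been called.

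**Figure D2:**
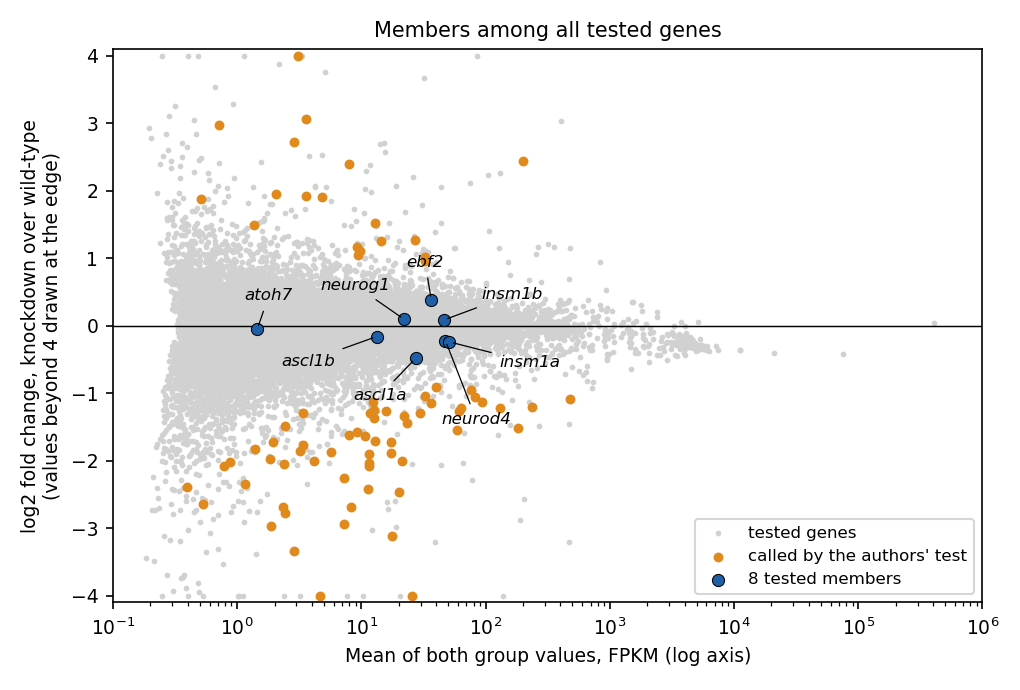
Log2 fold change (knockdown over wild-type) against the mean of both group values in FPKM (log axis) for tested genes above 0 in both groups, with genes called by the authors in orange and the 8 tested members in blue. All 8 members lie between -0.48 and 0.38, inside the band of genes that were not called.

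Among the remaining neural bHLH genes 1 was called. Neurod6a, a NeuroD factor of differentiating neurons, fell from 2.92 to 0.741 FPKM, a log2 fold change of -1.98 (q = 0.0287, authors' deposited table); its locus is shared with another row. It was the 1 call among 11 tested genes of this list (none rose), whose median log2 fold change was -0.05 with 7 below and 4 above 0 (0.052 with 4 below after rescaling); 3 of the list, all lower, had a deposited p under 0.05. Neurod1, an early NeuroD factor that follows neurogenins, was at 46.9 and 35.6 FPKM and was not called (q = 0.999, authors' deposited table). Bhlhe22 was at 3.58 and 1.82 FPKM (q = 0.522, authors' deposited table). Olig4 was at 14.4 and 8.38 FPKM (q = 0.530, authors' deposited table). Neither bhlhe22 nor olig4 was called, though both had a deposited p under 0.05.

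The E protein partners and Id inhibitors lay below 0 without a call. All 3 tested E protein genes lay below 0, with a median of -0.30 and none at a deposited p under 0.05: tcf3a was at 43.0 and 37.8 FPKM, tcf12 at 40.4 and 32.8 FPKM, and tcf4 at 4.78 and 2.74 FPKM. Tcf3b is not analysed here. All 5 Id genes were below 0 as well, with a median of -0.32 (4 of 5 after rescaling, without id2b). Id1 was at 2051 and 1671 FPKM, id3 at 356 and 242 FPKM, id2a at 138 and 91.5 FPKM, and id4 at 12.9 and 10.3 FPKM. Id2a and id3 had a p under 0.05 but a q of 0.580 and 0.637 in the authors' deposited table. The summed Id level was 21.3 times that of the 7 bHLH members in wild-type and 19.4 times in the knockdown.

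The Notch list, which holds other pathway genes besides ligands and receptors, had no call in either direction (0 of 16 tested). Its median was -0.13, with 5 above and 11 below 0, or 8 below after rescaling, and 1 gene had a deposited p under 0.05. Among the ligands that proneural factors switch on, dla was at 119 and 124 FPKM and dld at 48.3 and 45.2 FPKM. The ligand dlb was at 79.9 and 121 FPKM, a log2 fold change of 0.60 that was not called (p of 0.0302 and q of 0.766 in the authors' deposited table). Dll4, the Notch ligand of endothelium, was at 16.8 and 23.0 FPKM. The receptors notch1a, at 143 and 108 FPKM, and notch1b, at 36.4 and 26.9 FPKM, lay below 0 without a call. The ligands lay on both sides of 0, with dla and dlb above and dld below. The row for notch1a spans only 248 bases.

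Of 22 tested Hes, Her and Hey genes none was called. In this list 16 lay below (14 after rescaling) and 6 above 0, with a median of -0.23. Over all genes 10179 of 18800 lay below 0, or 7557 after rescaling. A deposited p under 0.05 was given to 4 of the 22, all lower, beside 3.76% lower over all tested genes. Hes2.2 came closest, at 6.96 and 2.66 FPKM (q = 0.0948., authors' deposited table) Her8.2 was at 3.87 and 2.14 FPKM, her11 at 9.69 and 5.66 FPKM, and her3 at 1.34 and 2.13 FPKM. Hes6, which promotes neuronal differentiation, was at 74.7 and 75.7 FPKM. The summed level of the list, hes6 included, was 4433 FPKM in wild-type and 3843 FPKM in the knockdown. This was 36.9 times the sum of the bHLH members in wild-type and 37.0 times in the knockdown, as both sums were lower in the knockdown.

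The lists of neural progenitor, early neuron and neuron subtype genes gave 1 further call. Among 20 tested neural progenitor genes, fabp7a, a fatty acid-binding protein of radial glia, fell from 330 to 144 FPKM (q = 0.0176., authors' deposited table) The homeobox gene gsx1 was at 14.4 and 6.22 FPKM (q = 0.0538, authors' deposited table) and sox21b at 36.3 and 19.5 FPKM (q = 0.0618, authors' deposited table), and neither was called. Sox21a was at 4.93 and 7.93 FPKM and sox3 at 215 and 211 FPKM. The median of the list was 0.0014, with 10 below and 10 above 0 (7 below after rescaling); at a deposited p under 0.05, 3 were higher and 4 lower.

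Early neuron genes (15 tested, none called) had a median of 0.14, with 10 above and 5 below 0 (3 below after rescaling); at a deposited p under 0.05, 2 were higher and 1 lower. The RNA-binding neuronal gene elavl3 was at 123 and 117 FPKM. The neurofilament-like genes ina, at 3.07 and 1.61 FPKM, and inab, at 20.1 and 30.7 FPKM, lay on opposite sides of 0. Onecutl was at 14.6 and 23.1 FPKM and stmn2a at 23.8 and 33.6 FPKM, while cdkn1ca, an inhibitor of cell division, was at 50.5 and 41.4 FPKM. In the subtype factor list (16 tested, none called, median -0.08, or 0.021 after rescaling, 1 higher at a deposited p under 0.05) prdm1a was at 2.33 and 4.36 FPKM, barhl2 at 35.2 and 26.4 FPKM, tfap2b at 2.03 and 1.35 FPKM, and pax2a at 4.05 and 5.29 FPKM. In the Ebf, Scrt and Myt list (9 tested, none called, none at a deposited p under 0.05, median -0.21) myt1la was at 5.61 and 3.68 FPKM, scrt1b at 2.00 and 1.34 FPKM, and scrt2 at 10.3 and 8.72 FPKM.

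**Figure D3:**
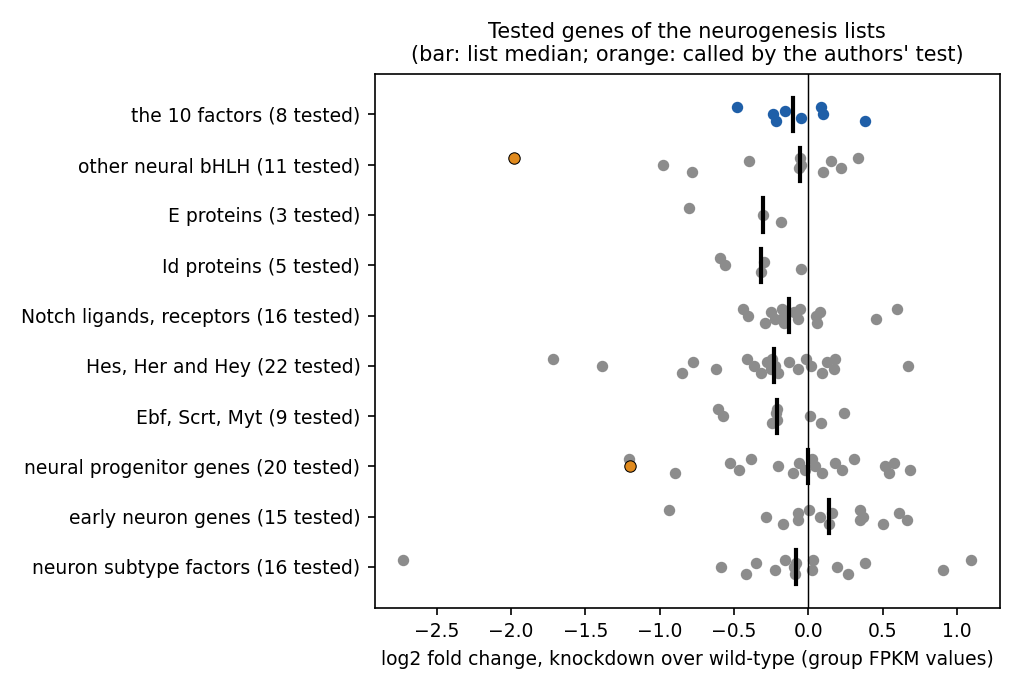
Log2 fold change (knockdown over wild-type) of each tested gene in the lists of neurogenesis genes; each point is 1 gene, black bars are list medians and orange points are genes called by the authors. The calls are neurod6a and fabp7a, both lower, and the medians run from -0.32 (Id proteins) to 0.14 (early neuron genes).

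Some markers of the sorted tissue and of other cells in embryonic heads were called, most of them in the pineal, pigment, and endothelial and blood lists. The part of any of these markers in the values above was not tested. All 12 tested pineal markers were lower in the knockdown by value, with 5 of them called and 8 at a deposited p under 0.05. Their summed level was 337 and 176 FPKM. Of this, flh, whose sequence drives the sorted marker, gave 238 and 129 FPKM without a call (q = 0.0986, authors' deposited table). Otx5, 1 of the 5 called, was at 16.9 and 7.71 FPKM (q = 0.0287, authors' deposited table). All 8 pigment markers were lower by value, with 4 called and 7 at a deposited p under 0.05 (sum 161 and 50.3 FPKM). Of 10 tested retina markers 6 lay below and 4 above 0 (sum of the list 146 and 136 FPKM). In that list 1 was called lower, and 3 were lower at that p. Endothelial and blood markers moved in opposite directions, with 6 rows higher and 3 lower at a deposited p under 0.05. The 7 endothelial and progenitor genes were all higher in the knockdown by value, with 4 called (sum 77.8 and 149 FPKM). The 5 globin rows were all lower by value, with 3 called (sum 86.7 and 1.24 FPKM), and both hbae1 rows were listed at 0 in the knockdown. The globin rows without a call were both of hbbe1.1, one with 20.5 FPKM in wild-type against 0.0709 FPKM in the knockdown and the other with 9.36 against 0.0766 FPKM. The erythroid factor gata1a was at 1.52 and 1.72 FPKM. All 9 epidermis markers were higher by value and none was called (sum 962 and 1231 FPKM). Their median log2 fold change was 0.38, and 1 was higher at a deposited p under 0.05. None of 10 tested hindbrain and midbrain markers was called either, with 6 above and 4 below 0 and a median of 0.47. The summed level of that list was 83.6 and 82.8 FPKM, and 4 were higher and 1 lower at that p. In the cranial ganglia and ear list 6 of 10 tested genes lay above and 4 below 0 (sum 124 and 125 FPKM). Of these 1 was called lower, and 2 were higher and 1 lower at a deposited p under 0.05. Insulin (ins, 0.0629 and 0.0670 FPKM) and the other islet and exocrine markers except pdx1 and prss1 were below 1 FPKM. In sorted bulk RNA, fewer cells of a type and less RNA per cell cannot be told apart.

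The targeted gene tbx2b was at 17.4 and 18.3 FPKM (q = 0.999, authors' deposited table), and its paralog tbx2a was at 8.16 and 8.43 FPKM. A splice morpholino can leave a misspliced transcript that is still counted, so this gene-level value does not check the knockdown. Since wild-type embryos received no injection, the injection and the loss of Tbx2b cannot be told apart, and neither can dose and RNA sample within the knockdown.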

How the data were processed

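RNA was sequenced from sorted pineal complex cells in 8 libraries, 4 per group. The submitters' processing notes name Cuffdiff, TopHat2, Bowtie2, Trimmomatic 0.32 and the Zv9 build, without settings or gene annotation. The authors' deposited table gives 1 FPKM value per gene and group, a log2 fold change, a test score, a p-value and a q-value, per the file headers. FPKM divides by length and a measure of library size, so a change in other RNAs can shift it. How library size was set is not stated. Depth is unknown, so no counting interval or detection limit was given. Group values allow no replicate test, so a gene is called where the authors' flag says so (q up to 0.0457).

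Computed here, with Python 3.11.15, pandas 2.3.3 and numpy 2.4.6, were fold changes from the FPKM values, counts of calls, and medians over tested genes above 0 in both groups. The members and the lists (18 with the members, 227 distinct genes, 218 matched, 14 of these by gene identifier or another name) were chosen with earlier results of these data known. Genes were named by rule: all members; called list genes; up to 4 tested genes per list with the largest absolute fold change at 1 FPKM or more in 1 group; and a fixed set. Marker lists are given as counts. A row can be counted in more than 1 list: mitfa is in the retina and pigment lists, and neurod1 in the other neural bHLH and the cranial ganglia and ear lists. Other genes were named beyond the rule, after their values were seen. These were ebf1a, ebf1b, ebf3, atoh1b, atoh1c, atoh8, id2b, gata1a, ins, mitfa, BX088691.1 and the genes of the last part. Coordinates are those of the table, which does not say whether starts count from 0 or 1.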

Additional observations from a re-analysis of the deposited data

How the results depend on the processing

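No paired analysis was possible because only 1 value per group is given, with no replicate number; nor could any library be left out. Of 48 values for the 8 tested members, 46 kept their direction and their side of the call, but much of this was fixed in advance. Adding 1 or 0.1 FPKM to both groups cannot turn a sign, and the p and q thresholds leave the fold change as it is. Only rescaling and centring on the median of tested genes could turn a direction, and only the thresholds could move a call. Ascl1a passed at an unadjusted p under 0.05 (1 member lower), and atoh7 turned to 0.054 when rescaled to TPM. That rescaling adds 0.106 to the log2 fold change of each gene, the median over all genes included. Medians then were 0.00059 for the members, 0.052 for other neural bHLH genes, -0.20 for E proteins and -0.22 for Id proteins. They were -0.022 for the Notch list, -0.13 for Hes and Her genes and -0.10 for the Ebf list. Rescaled medians were 0.11 for progenitor genes, 0.25 for early neuron genes and 0.021 for subtype factors. Without rows at shared loci, an alternative chosen after seeing the data, medians were -0.052 for the members, -0.49 for E proteins, 0.038 for progenitor genes and 0.082 for early neuron genes, and 1 gene of the lists was called lower rather than 2; the drop in the count is neurod6a, which shares its locus. Among the lists, a level of 1 FPKM in both groups also left 1 lower, q under 0.1 gave 5 lower, and p under 0.05 gave 7 higher and 14 lower. Over all tested genes, q under 0.1 gave 29 higher and 96 lower, and p under 0.05 gave 336 higher and 712 lower. A q under 0.01 gave 0 and 0, since the smallest q is above it. With 1 FPKM in both groups, 12 were called higher and 44 lower. Paralog ratios kept their order on FPKM + 1, which adding the same amount to both paralogs could not change.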

Other observations

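Neurod6b was at 48.5 and 32.6 FPKM, in the range of the most abundant members, but carries the status LOWDATA and was not tested. Its paralog neurod6a, at 2.92 FPKM in wild-type, was tested and called. The row for notch1a spans 248 bases on chromosome 21 and that for ferd3l 244 bases on chromosome 19, as end minus start, the shortest of the rows in the lists above. The row for mib1, a ubiquitin ligase of Delta signalling, lies on an unplaced scaffold and is listed at 0 in both groups. Heyl, at 0.969 and 0.294 FPKM, and pou4f3, at 0.603 and 0.0912 FPKM, had the lowest fold changes of their lists without a call, both from under 1 FPKM.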
